A study of Mus musculus with 16 samples.

Results

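The genes described here are 60 genes of mitosis and of the G2 to M transition, taken by symbol from a fixed list, and followed across germinal centre B cells of mouse lymph node. Of the 60, 59 have a row in the count table, which holds 9443 genes, and 50 had enough counts to be tested among 6824 tested genes. RNA of Knstrn was not analysed here, but its promoter is among those counted below. The animals were WT mice. Sorted germinal centre B cells of the light zone (LZ) or dark zone (DZ) were compared 4 h after in vivo treatment with an anti-CD40 antibody or an isotype control antibody. The 4 groups were anti-CD40 LZ, isotype LZ, anti-CD40 DZ and isotype DZ, with 4 libraries each. The labels give no antibody dose, sorting gate or number of mice and do not say whether the 4 libraries of a group came from separate mice, so p-values here measure the spread between libraries, which may be technical.

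Germinal centre B cells cycle between the dark zone, where they divide, and the light zone, where helper T cells signal to them through CD40. Entry into mitosis is driven by the kinase Cdk1 with cyclin B, which Cdc25 phosphatases switch on; chromosomes are then condensed, attached to the spindle at their kinetochores by microtubules and motor kinesins, and separated once the anaphase-promoting complex (APC/C) is switched on. RNA of many of these genes accumulates late in the cell cycle. That timing is set in part by promoter elements called CHR (cell cycle genes homology region), bound by MuvB-based complexes with B-Myb and FoxM1 in dividing cells or with repressors in resting cells, and by CCAAT boxes bound by NF-Y.

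The 5 promoters below were picked among the genes described with full values whose promoters hold CHR letters. Cenpa, Cenpe and Ncapd2 stand for the LZ difference after anti-CD40, and Ccnb2 and Cdc20 for the difference between zones. They do not stand for all genes that passed. The promoter of Cdc25b, which passed in both zone comparisons, held no CHR letters and is not shown. Each window runs from 150 bases before to 30 bases after the RefSeq start (build GRCm38.p6), 5′ to 3′ on the strand of the gene. Capitals mark the letters TTTGAA or TTTAAA (CHR) and CCAAT, on either strand, so that CCAAT on the opposite strand reads ATTGG.
Cenpa, chr5:30666736-30666915, forward strand: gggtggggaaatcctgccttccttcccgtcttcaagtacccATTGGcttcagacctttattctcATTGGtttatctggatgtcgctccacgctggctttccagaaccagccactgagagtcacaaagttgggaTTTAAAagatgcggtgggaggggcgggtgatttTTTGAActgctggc
Cenpe, chr3:135212413-135212592, forward strand: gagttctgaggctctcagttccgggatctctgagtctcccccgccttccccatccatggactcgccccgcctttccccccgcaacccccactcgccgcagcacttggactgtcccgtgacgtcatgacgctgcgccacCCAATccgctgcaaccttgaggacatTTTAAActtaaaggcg
Ncapd2, chr6:125191557-125191736, reverse strand: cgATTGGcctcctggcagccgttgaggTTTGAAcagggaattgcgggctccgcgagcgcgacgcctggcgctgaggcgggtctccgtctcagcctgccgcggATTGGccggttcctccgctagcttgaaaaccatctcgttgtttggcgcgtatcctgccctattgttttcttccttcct
Ccnb2, chr9:70421525-70421704, reverse strand: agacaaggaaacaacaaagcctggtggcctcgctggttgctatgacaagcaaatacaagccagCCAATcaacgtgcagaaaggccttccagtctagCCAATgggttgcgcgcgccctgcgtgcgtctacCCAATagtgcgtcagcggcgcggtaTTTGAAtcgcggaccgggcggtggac
Cdc20, chr4:118437314-118437493, reverse strand: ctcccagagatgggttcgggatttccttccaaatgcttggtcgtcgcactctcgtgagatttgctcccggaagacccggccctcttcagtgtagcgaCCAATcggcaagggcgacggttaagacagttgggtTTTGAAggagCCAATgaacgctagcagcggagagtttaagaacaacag
In these windows CHR letters began 18 bases before the start in Cdc20, 17 bases before and 16 bases after it in Cenpa, 14 bases after it in Cenpe, 4 bases after it in Ccnb2 and 123 bases before it in Ncapd2. These distances depend on the start used. GENCODE vM21 places the 5′ end of Ncapd2 at chr6:125191701, inside the window shown and upstream of the RefSeq start. RefSeq gave 55 promoters for 52 of the 60 genes, each of 250 bases before and 50 after the start. CHR letters occurred in 80.0% of these, against 27.6% of 32851 promoters of all genes and 19.2% of the 9694 promoters of genes in the count table. CCAAT occurred in 74.5% of the mitotic promoters, against 37.4% of all promoters. Both together occurred in 69.1%, against 10.7%. Of the 65 CHR matches in mitotic promoters, 45 began between 50 bases before and 49 bases after the start. These are matches of letters, not measured sites. For 41 of the 55 promoters the first 30 bases after the RefSeq start lay in a GENCODE transcript of the gene. Among 35 tested genes with CHR letters the median log2 fold change after anti-CD40 in the LZ was -0.57, and among 8 without them it was -0.38; promoters of 7 tested genes were not used.

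Depth ran from 493131 to 1473415 unique molecular identifiers (UMI, each counted once per captured RNA molecule) per library, and 1 UMI equalled 0.651 to 2.05 CPM (counts scaled to a common library total). Levels below are CPM scaled with TMM factors, and a gene passed at an adjusted p under 0.05 over 6824 genes in the quasi-likelihood test of edgeR. Fold changes are log2, given with their standard error. The sort labels were checked within each antibody with marker lists, summed as CPM of the library total. The 6 dark zone markers summed to 142 to 244 CPM in anti-CD40 LZ and 654 to 712 CPM in isotype LZ, and to 589 to 754 CPM in anti-CD40 DZ and 818 to 999 CPM in isotype DZ. The 6 light zone markers summed to 6008 to 7370 CPM in anti-CD40 LZ and 1850 to 2580 CPM in isotype LZ, and to 2793 to 4284 CPM in anti-CD40 DZ and 766 to 928 CPM in isotype DZ. Within each antibody both sums separated the zones. Across antibodies they did not: anti-CD40 DZ lay above isotype LZ in light zone markers and overlapped it in dark zone markers. Single markers differed from the sums. Mean Egr1 fell after anti-CD40 (56.2 against 98.8 CPM in the LZ, 29.7 against 59.4 CPM in the DZ). Under isotype, mean Mybl1 and Mxd3 were higher in the LZ (114 and 86.3 CPM) than in the DZ (64.4 and 73.7 CPM). Dark zone markers were thus lowest in the group in which the mitotic genes were lowest; their part in the result was not tested. Of 10 T cell markers 1 (Lat) and of 10 myeloid markers 2 (Lyz2 and Flt3) have a row in the table, and none of 5 red cell and platelet markers does. Rows are also present for 8 of 9 germinal centre B, 4 of 6 plasma cell and 1 of 7 stromal and follicular dendritic markers. Among these, mean S1pr2 was 123 CPM in anti-CD40 LZ and 450 CPM in isotype LZ, and mean Irf4 was 396 and 46.2 CPM.

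The summed level of the 59 genes was lowest in LZ cells after anti-CD40. It was 3149 ± 196 CPM in anti-CD40 LZ and 4312 ± 144 CPM in isotype LZ (SD, n = 4 each). In the DZ it was 4442 ± 410 CPM after anti-CD40 and 5290 ± 312 CPM after isotype. Anti-CD40 LZ libraries ran from 2946 to 3406 CPM and isotype LZ libraries from 4110 to 4450 CPM, without overlap. Anti-CD40 DZ libraries, from 3916 to 4819 CPM, lay below isotype DZ libraries, from 4946 to 5626 CPM, on this scale. As a share of all UMI, the 59 genes held 0.276 to 0.330% in anti-CD40 LZ and 0.412 to 0.453% in isotype LZ libraries, and 0.410 to 0.493% in anti-CD40 DZ and 0.485 to 0.583% in isotype DZ libraries. On that scale, without TMM factors, the LZ groups did not overlap, whereas in the DZ anti-CD40 library 3 (4927 CPM) lay above isotype library 1 (4850.0 CPM). In sorted bulk RNA, fewer cells in G2 or mitosis and less of these RNAs per cell cannot be told apart.

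**Figure D1:**
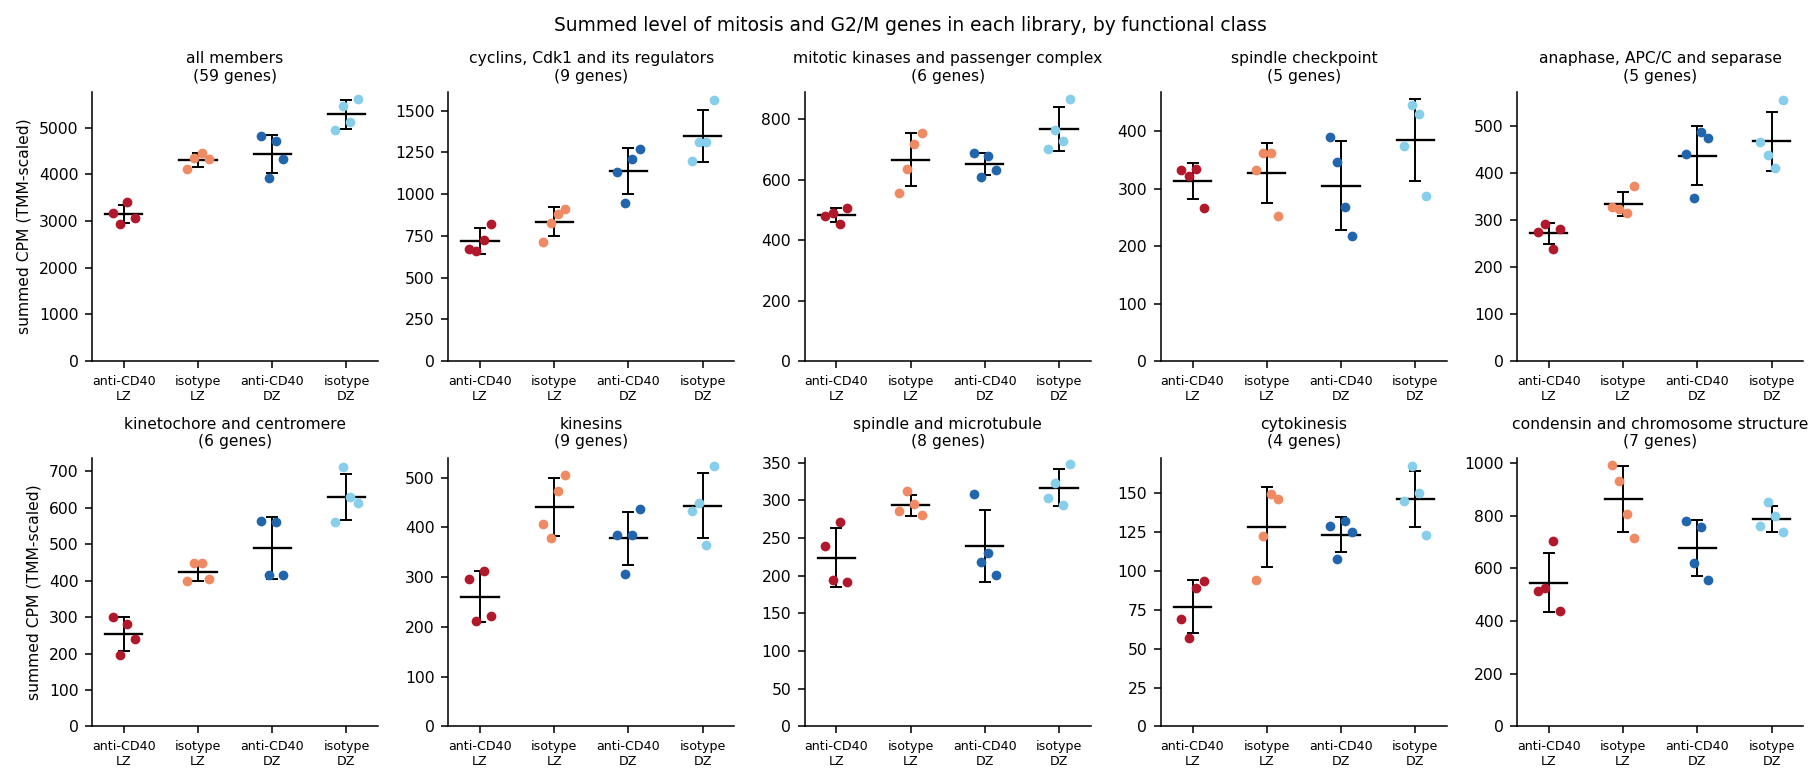
Summed level (TMM-scaled CPM, vertical axes from 0) of all 59 genes and of the 9 functional classes in each library; points are libraries, lines the group mean and bars the SD (n = 4). The 4 anti-CD40 LZ libraries lie below the 4 isotype LZ libraries for all genes together, 2946 to 3406 against 4110 to 4450 CPM, and the spindle checkpoint and cyclin classes show overlapping LZ groups.

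After anti-CD40 in the LZ, 12 of the 50 tested genes fell and none rose. That is 24% of them lower, where 8.24% of all tested genes were lower and 10.8% higher. The 12 were the kinetochore genes Cenpe, Cenpa and Ndc80, the condensin subunit Ncapd2 and the topoisomerase Top2a, the phosphatases Cdc25b and Cdc25c, the cyclin Ccnb2, the kinase Plk1, the passenger complex scaffold Incenp, the kinesin Kif22 and the spindle midzone protein Prc1. A negative log2 fold change was found for 47 of 50, where 49.6% of all genes were negative, with a median of -0.52 beside 0.01 over all genes. In 14 of the 50 every anti-CD40 library lay below every isotype library; 9.03% of all genes did so, and 0 of the 50 lay above, where 11.4% of all genes did. The 3 positive genes were Cks2, Bub3 and Cks1b, and only Cks2 had an unadjusted p under 0.05. DESeq2 and limma-voom called none higher, whereas a fit with replicate number as a block called Cks2 higher (edgeR adjusted p = 0.0183). The count of 12 rested in part on single libraries: it was 6 without anti-CD40 LZ library 1, 5 without library 2 and 7 without library 4 of that group. It was also 7 with limma-voom, 6 without the low-count filter, 19 with upper quartile factors and 21 with replicate number as a block. Cenpa, Cenpe, Ncapd2 and Ndc80 were lower in all 25 alternative analyses.

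**Figure D2:**
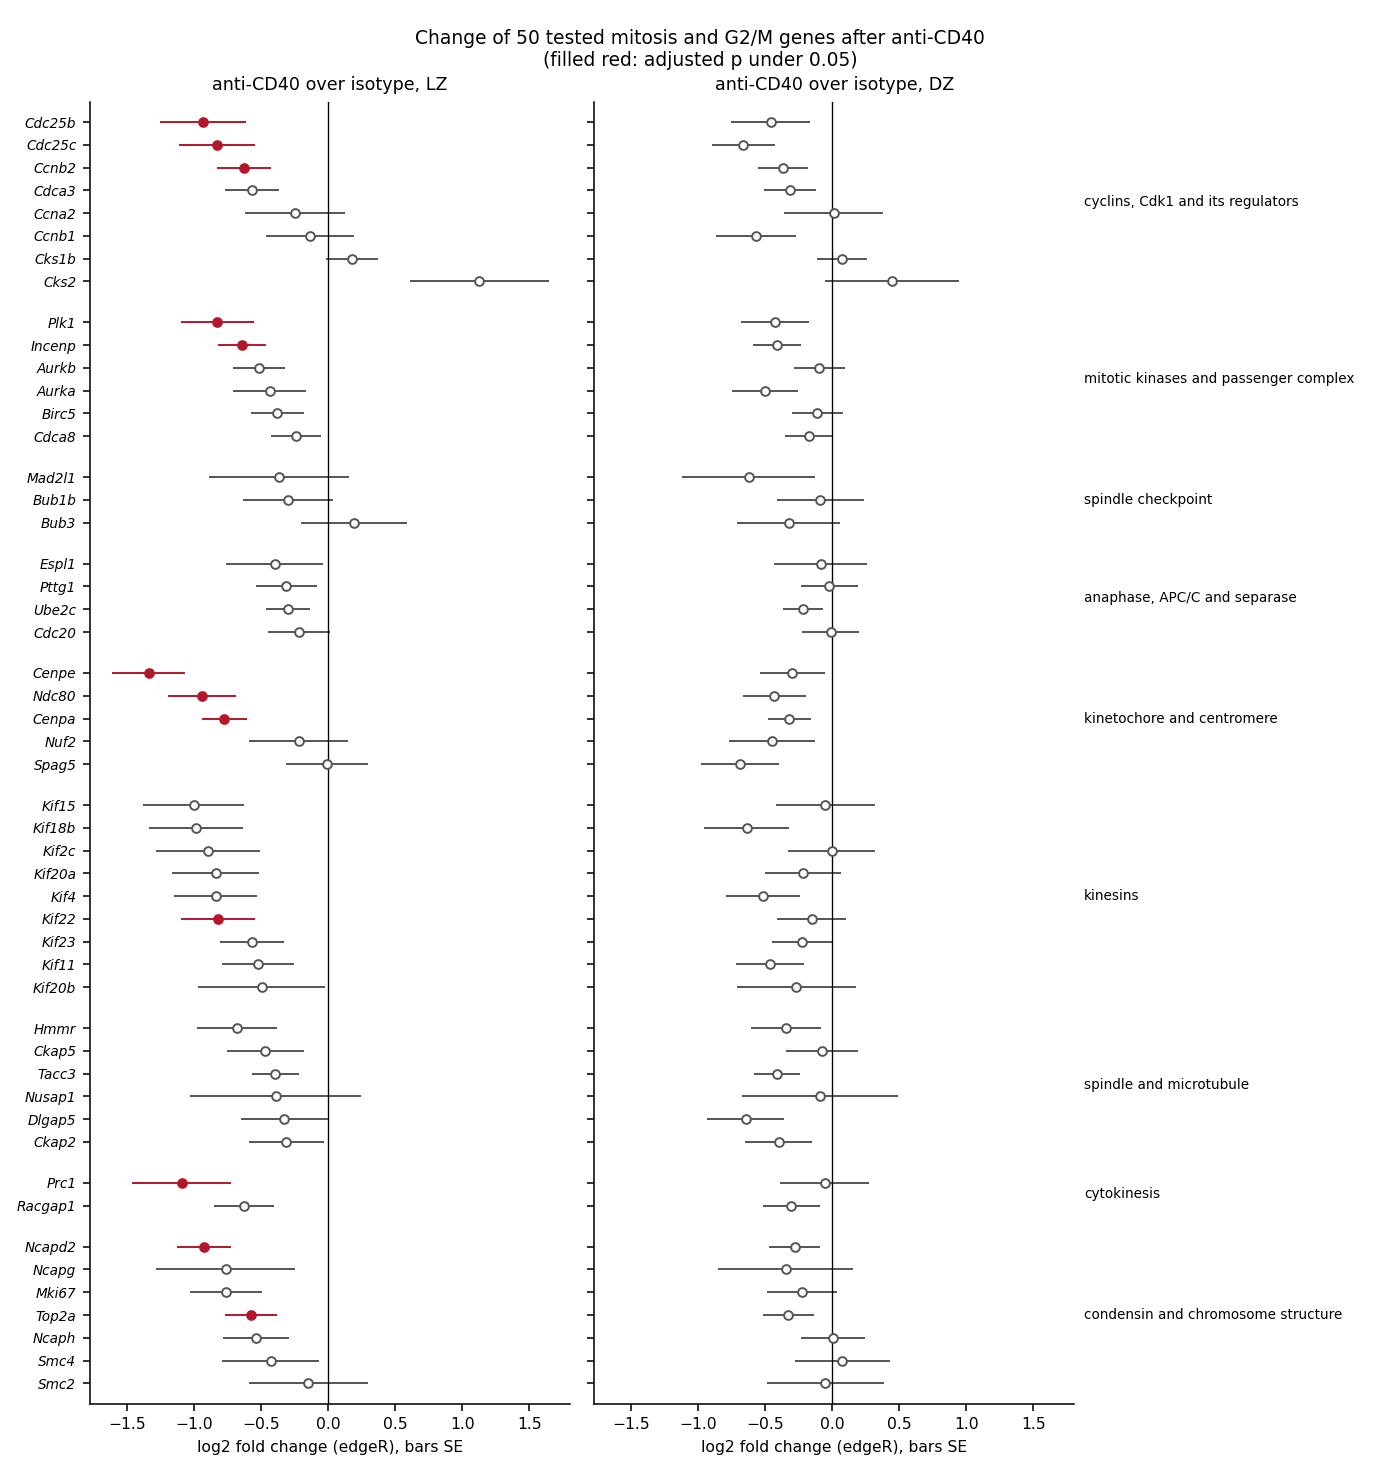
Log2 fold change (edgeR, horizontal axes, bars SE) of the 50 tested genes after anti-CD40 over isotype in the LZ (left) and the DZ (right), ordered by class; filled red points passed. In the LZ 12 genes passed, all below 0, and in the DZ none did, although 45 of 50 points lie below 0.

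Kinetochore genes had the highest share of calls among the 9 classes, with 3 of 5 tested genes lower in the LZ after anti-CD40. The classes held only 2 to 9 tested genes. Of 26 other kinetochore and checkpoint genes outside the 9 classes, 1 was lower (median -0.27). Cenpe encodes CENP-E, the kinesin motor that carries chromosomes to the spindle equator. It had 27.3, 15.8, 30.4 and 33.2 CPM in anti-CD40 LZ libraries, against 48.4, 89.1, 54.1 and 81.1 CPM in isotype LZ libraries. All 4 anti-CD40 libraries lay below all 4 isotype libraries, and the log2 fold change was -1.34 ± 0.27 (edgeR adjusted p = 0.00210). In the DZ, Cenpe had 64.9, 61.8, 111 and 75.8 CPM after anti-CD40 and 84.4, 104, 99.1 and 91.8 CPM after isotype. There the groups overlapped through 1 high anti-CD40 library (-0.30 ± 0.24, edgeR adjusted p = 0.809). Cenpa encodes CENP-A, the histone H3 variant that marks centromeres. It had 149, 101, 135 and 135 CPM in anti-CD40 LZ libraries, against 193, 210.1, 268 and 219 CPM in isotype LZ libraries, again without overlap (-0.77 ± 0.17, edgeR adjusted p = 0.00336). DZ libraries had 367, 262, 320.1 and 268 CPM after anti-CD40 and 343, 431, 377 and 371 CPM after isotype, which overlapped and did not pass. Ndc80, the microtubule-binding core of the outer kinetochore and named after its values were seen, had 35.3 ± 11.6 CPM in anti-CD40 LZ and 68.0 ± 13.3 CPM in isotype LZ (SD, n = 4 each; -0.94 ± 0.25, edgeR adjusted p = 0.0132). Its partner Nuf2 and the spindle adaptor Spag5 did not pass.

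Of the 7 condensin and chromosome structure genes, 2 fell in the LZ. Ncapd2, a regulatory subunit of condensin I, had 67.3, 88.3, 100.3 and 71.2 CPM in anti-CD40 LZ libraries, against 113, 158, 183 and 173 CPM in isotype LZ libraries. The groups did not overlap (-0.92 ± 0.20, edgeR adjusted p = 0.00322). Its DZ libraries had 112, 129, 171 and 137 CPM after anti-CD40 and 141, 168, 154 and 199 CPM after isotype, with overlap and no call. Top2a, the topoisomerase that untangles sister chromatids, had 173, 167, 187 and 96.6 CPM in anti-CD40 LZ libraries, against 255, 245, 199 and 231 CPM in isotype LZ libraries. The anti-CD40 libraries were all lower, the fourth most so (-0.57 ± 0.19, edgeR adjusted p = 0.0438). Without that library the value was -0.40 and no longer passed (edgeR adjusted p = 0.140). In the DZ, Top2a had 186, 141, 187 and 125 CPM after anti-CD40 and 212, 221, 181 and 189 CPM after isotype, and the ranges overlapped. All 7 genes of the class were negative in the LZ, from -0.92 to -0.15; Mki67, Ncaph, Ncapg, Smc4 and Smc2 did not pass.

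Among the cyclins, Cdk1 and its regulators, 3 of 8 tested genes fell in the LZ, and the Cdk1-binding Cks genes went the other way in sign. Ccnb2 (cyclin B2) had 99.4, 55.2, 87.9 and 71.2 CPM in anti-CD40 LZ libraries, against 116, 111, 132 and 127 CPM in isotype LZ libraries. All anti-CD40 libraries were lower (-0.63 ± 0.20, edgeR adjusted p = 0.0356). The phosphatase gene Cdc25b had 38.5, 66.2, 104 and 80.7 CPM in anti-CD40 LZ libraries, against 125, 105, 186 and 143 CPM in isotype LZ libraries. The highest anti-CD40 library nearly reached the lowest isotype library (-0.93 ± 0.32, edgeR adjusted p = 0.0494), and the call held in 14 of 25 alternatives. Cdc25c, a related phosphatase, had 12.8, 11.0, 18.0 and 9.50 CPM in anti-CD40 LZ libraries, against 21.5, 31.8, 16.8 and 22.9 CPM in isotype LZ libraries. These overlapped at 1 library of each group (-0.82 ± 0.28, edgeR adjusted p = 0.0477), and 9 of 25 alternatives kept the call.

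In the DZ, Cdc25c had 24.2, 19.5, 24.1 and 26.6 CPM after anti-CD40, against 38.1, 36.5, 35.0 and 37.7 CPM after isotype. The groups did not overlap, but the change did not pass over all genes (-0.66 ± 0.24, edgeR adjusted p = 0.214). Cdc25b had 155, 194, 386 and 299 CPM in anti-CD40 DZ libraries and 246, 288, 369 and 505 CPM in isotype DZ libraries, with wide overlap. Cks1b, a small Cdk-binding protein and the class member of highest mean CPM, had 277, 282, 211 and 336 CPM in anti-CD40 LZ libraries and 179, 242, 246 and 310.4 CPM in isotype LZ libraries. Here the groups overlapped (0.18 ± 0.19, edgeR adjusted p = 0.584). Its paralog Cks2, named after its values were seen because it went against its class, had 25.7, 64.7, 74.4 and 157 CPM in anti-CD40 LZ libraries, against 22.8, 35.0, 44.7 and 45.9 CPM in isotype LZ libraries. Library 4 was the highest and library 1 the lowest in both groups (1.13 ± 0.52, edgeR adjusted p = 0.141). How the counting treated any reads shared between the Cks genes and similar sequences was not tested. Ccna2, Ccnb1 and Cdca3 did not pass in the LZ.

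Of the 6 mitotic kinases and chromosomal passenger genes, Plk1 and Incenp fell in the LZ. Plk1 encodes Polo-like kinase 1, which acts from mitotic entry to cytokinesis. It had 43.3, 50.5, 37.2 and 69.7 CPM in anti-CD40 LZ libraries, against 67.2, 71.6, 82.0 and 134 CPM in isotype LZ libraries. Library 4 was highest in both groups, and the groups overlapped at 1 library each (-0.82 ± 0.27, edgeR adjusted p = 0.0388), and the call held in 17 of 25 alternatives. Plk1 in the DZ had 74.3, 63.8, 74.0 and 117 CPM after anti-CD40 and 99.0, 93.2, 100.1 and 143 CPM after isotype, with no call. Incenp, the scaffold of the passenger complex that carries Aurora B, had 80.2, 89.9, 96.9 and 87.1 CPM in anti-CD40 LZ libraries, against 124, 143, 121 and 166 CPM in isotype LZ libraries. These did not overlap (-0.64 ± 0.18, edgeR adjusted p = 0.0173). Its DZ libraries had 96.9, 69.6, 108 and 90.1 CPM after anti-CD40 and 109, 123, 105 and 146 CPM after isotype, overlapping narrowly (-0.41 ± 0.18, edgeR adjusted p = 0.362). Cdca8 (borealin), another passenger subunit and the class member of highest mean CPM, had 136, 142, 123 and 179 CPM in anti-CD40 LZ libraries and 122, 161, 188 and 215 CPM in isotype LZ libraries, which overlapped (-0.24 ± 0.19, edgeR adjusted p = 0.420). The kinases Aurka and Aurkb and the passenger subunit Birc5 (survivin) were negative in the LZ and did not pass.

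All 9 kinesins, the motor proteins of spindle assembly, chromosome movement and cytokinesis, were negative in the LZ after anti-CD40, with a median log2 fold change of -0.84 and a range of -1.0 to -0.49. Kif22, a chromosome-arm motor, was the 1 kinesin that passed. It had 67.3, 41.0, 67.6 and 64.9 CPM in anti-CD40 LZ libraries, against 87.3, 74.8, 108 and 159 CPM in isotype LZ libraries. The groups did not overlap, and isotype library 4 was the highest (-0.82 ± 0.27, edgeR adjusted p = 0.0411); without it the change was -0.57 and did not pass (edgeR adjusted p = 0.150). In the DZ, Kif22 had 85.2, 67.0, 91.7 and 115 CPM after anti-CD40 and 76.8, 88.1, 82.1 and 148 CPM after isotype, overlapping over most of their range. Unadjusted p was under 0.05 for 7 of the 9 kinesins in the LZ and for 0 of 9 in the DZ, where the median was -0.22. Over all tested genes 19.1% passed in the LZ and 2.39% in the DZ, so calls of any kind were fewer in the DZ. Shares of unadjusted p over all genes are not given here for any comparison. For the interaction, 0 of the 9 kinesins had an unadjusted p under 0.05. Kif15, Kif18b, Kif2c and Kif22 had no overlap between LZ groups. With replicate number as a block, 6 of the 9 kinesins passed as lower in the LZ. That fit also raised the calls over all genes in the LZ, in either direction, from 1302 to 2013.

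Cytokinesis and spindle genes gave 1 call in the LZ. Prc1, which bundles the microtubules of the spindle midzone, had 11.2, 6.31, 18.0 and 22.2 CPM in anti-CD40 LZ libraries, against 25.5, 30.2, 24.2 and 45.9 CPM in isotype LZ libraries. The groups did not overlap (-1.09 ± 0.37, edgeR adjusted p = 0.0450), and the call held in 15 of 25 alternatives. Its DZ libraries had 32.8, 16.3, 27.3 and 26.6 CPM after anti-CD40 and 27.0, 37.5, 23.0 and 17.6 CPM after isotype, and did not separate. Racgap1, a subunit of the centralspindlin complex, had 44.9, 47.3, 62.0 and 55.4 CPM in anti-CD40 LZ libraries and 48.4, 76.4, 108 and 95.2 CPM in isotype LZ libraries. A single isotype library lay among the anti-CD40 libraries (-0.63 ± 0.23, edgeR adjusted p = 0.0597). Tacc3, a spindle microtubule stabilizer, had 96.2, 97.8, 113 and 83.9 CPM in anti-CD40 LZ libraries, against 122, 121, 139.8 and 132 CPM in isotype LZ libraries. Every anti-CD40 library was lower, without passing (-0.39 ± 0.18, edgeR adjusted p = 0.130). In the DZ, Tacc3 had 125, 82.0, 96.5 and 77.8 CPM after anti-CD40 and 134, 139, 111 and 128 CPM after isotype, a difference of nearly the same size (-0.41 ± 0.17, edgeR adjusted p = 0.334). Log2 fold changes of all 6 tested spindle genes were negative in both zones.

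The spindle checkpoint and the APC/C with its targets gave no call in either zone. Bub3, a checkpoint protein at unattached kinetochores, had 212, 162, 162 and 87.1 CPM in anti-CD40 LZ libraries and 133, 191, 149 and 72.3 CPM in isotype LZ libraries. Library 4 was the lowest in both groups, and the groups overlapped (0.19 ± 0.40, edgeR adjusted p = 0.798). Ube2c, the ubiquitin-conjugating enzyme of the APC/C, had 119, 109, 107 and 88.7 CPM in anti-CD40 LZ libraries and 118, 145, 136 and 122 CPM in isotype LZ libraries, with a small overlap (-0.30 ± 0.16, edgeR adjusted p = 0.223). Cdc20, the mitotic activator of the APC/C, had 49.7, 67.8, 54.1 and 77.6 CPM in anti-CD40 LZ libraries and 60.5, 79.6, 65.3 and 84.7 CPM in isotype LZ libraries. These largely overlapped (-0.22 ± 0.23, edgeR adjusted p = 0.580). The median over the 4 tested genes of this class was -0.30 in the LZ, beside -0.77 over the 5 kinetochore genes.

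**Figure D3:**
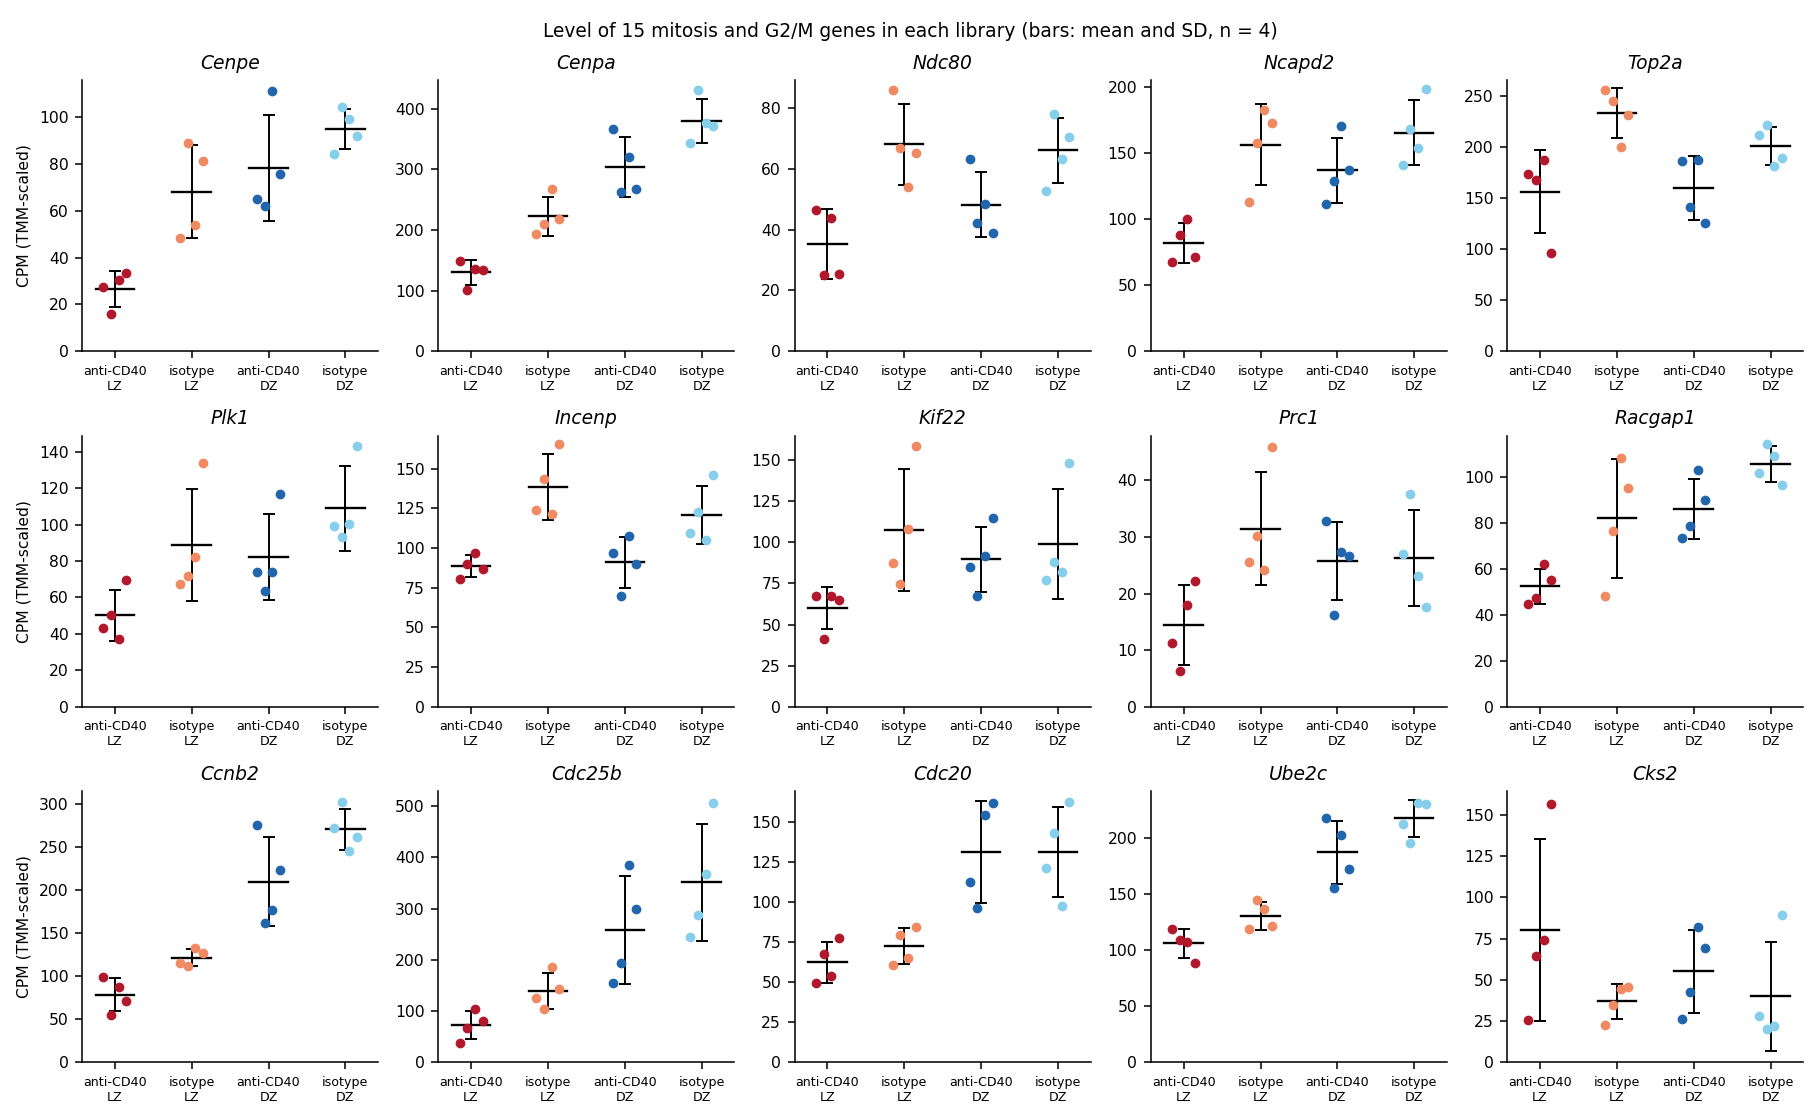
Level (TMM-scaled CPM, vertical axes from 0) of 15 genes in each library by group; points are libraries, lines the mean and bars the SD (n = 4). Cenpe, Cenpa, Ncapd2 and Incenp are lower in all anti-CD40 LZ than in all isotype LZ libraries, whereas Ccnb2, Cdc20 and Ube2c separate LZ from DZ libraries under either antibody.

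In the DZ, edgeR called none of the 50 genes after anti-CD40, where 0.147% of all tested genes were lower and 2.24% higher. DESeq2 and limma-voom also called none, and 5 genes had an unadjusted p under 0.05 (Cdc25c, Incenp, Spag5, Dlgap5 and Tacc3, all negative). The median log2 fold change was -0.29, beside -0.01 over all genes, and 45 of 50 genes were negative, where 51.4% of all genes were. Cdc25c and Aurka were the 2 genes with no overlap between groups; 2.4% of all genes had none in that direction and 4.95% in the other. The antibody comparisons in LZ and DZ share no library. In both, 44 of the 50 genes (88%) were negative, and 35.1% of all tested genes were. Across the 50 genes the LZ and DZ changes were weakly related (Pearson r = 0.34, Spearman rho = 0.18, as a description over genes).

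Whether the antibody difference itself differed between zones was tested as an interaction. No gene of the 50 passed in edgeR, DESeq2 or limma-voom, and of all genes 0.0147% were called lower. The change was more negative in the LZ for 39 of 50 genes, where it was so for 50% of all tested genes. The median interaction was -0.28, beside -0.0002 over all genes. The 2 genes with an unadjusted p under 0.05 were Cenpe (-1.04 ± 0.36, edgeR adjusted p = 0.395) and Ncapd2 (-0.65 ± 0.28, edgeR adjusted p = 0.511). By class, the change was more negative in the LZ for all 9 kinesins (median -0.35), all 7 condensin and chromosome structure genes (-0.51), all 4 anaphase and APC/C genes (-0.25) and both cytokinesis genes (-0.68). It was so for 5 of 6 kinase and passenger genes (-0.25), 5 of 8 cyclin class genes (-0.21), 3 of 5 kinetochore genes (-0.45), 3 of 6 spindle genes (-0.14) and 1 of 3 checkpoint genes (0.26). These are counts of signs and medians, with no test between classes.

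Under isotype, where the zones differ without the agonist, 5 of the 50 genes were lower in the LZ than in the DZ and none was higher. That is 10% lower, where 0.938% of all tested genes were lower and 1.29% higher, 2.23% together. Zones did not overlap for 7 of the 50 genes, all lower in the LZ; over all genes the shares were 3.85% lower and 4.32% higher. The 5 genes called were Ccnb2, Cdc25b, Cenpa, Ube2c and Cdc20, genes of the cyclin, kinetochore and APC/C classes. Ccnb2 had 116, 111, 132 and 127 CPM in isotype LZ libraries, against 272, 302, 245 and 261 CPM in isotype DZ libraries. Every DZ library was above every LZ library (-1.15 ± 0.19, edgeR adjusted p = 0.00221), and all 25 alternatives kept the call. Ube2c had 118, 145, 136 and 122 CPM in isotype LZ libraries, against 212, 196, 230.3 and 230.1 CPM in isotype DZ libraries. Again the zones did not overlap (-0.74 ± 0.16, edgeR adjusted p = 0.0136). Cdc20 had 60.5, 79.6, 65.3 and 84.7 CPM in isotype LZ libraries, against 121, 143, 97.1 and 162 CPM in isotype DZ libraries. Its zones did not overlap either (-0.85 ± 0.22, edgeR adjusted p = 0.0477), but the call held in 7 of 25 alternatives.

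Cdc25b and Cenpa, whose libraries are given above, differed by -1.33 ± 0.31 (edgeR adjusted p = 0.0240) and -0.77 ± 0.16 (edgeR adjusted p = 0.0136) between isotype LZ and isotype DZ, each without overlap. The anaphase and APC/C class, which holds Ube2c and Cdc20, had a median of -0.30 with 2 of 4 negative. The classes without a call ranged widely. The 6 kinase and passenger genes had a median of -0.33 with 4 of 6 negative, and all 3 checkpoint genes were negative (median -0.15). The 6 spindle genes had a median of -0.15 with 3 negative, the 2 cytokinesis genes -0.07 with 1 negative, the 9 kinesins -0.04 with 5 negative, and the 7 condensin and chromosome structure genes 0.25 with 2 negative. Over all 50 genes the median was -0.15 beside 0.02 over all genes, and 31 were negative, where 48.2% of all genes were. Without the 4 libraries numbered 4 this median was -0.06. The count of 5 was 1 without isotype LZ library 1, 2 without isotype LZ library 2 or isotype DZ library 3, and 3 without isotype DZ library 2 or 4. Unadjusted p was under 0.05 for 1 gene in the positive direction, the kinesin Kif15 (0.83 ± 0.36, edgeR adjusted p = 0.337), named after its values were seen; DESeq2 and limma-voom called none higher.

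After anti-CD40, 10 of the 50 genes were lower in the LZ than in the DZ and none was higher. That is 20% of them, where 5.38% of all tested genes were lower and 6.14% higher. Zones did not overlap for 13 of the 50, all lower in the LZ, where 7.62% of all genes were lower without overlap and 8.59% higher. Besides Ccnb2, Cdc25b, Cenpa, Ube2c and Cdc20 the call took in Cenpe, Ncapd2, Birc5, Racgap1 and Cdca3. Ccnb2 differed by -1.41 ± 0.20 (edgeR adjusted p = 0.000153), Cdc25b by -1.81 ± 0.32 (edgeR adjusted p = 0.00102) and Cenpa by -1.23 ± 0.17 (edgeR adjusted p = 0.000120). In each the anti-CD40 LZ libraries lay below all anti-CD40 DZ libraries. Cenpe differed by -1.52 ± 0.27 (edgeR adjusted p = 0.00102) after anti-CD40, and by -0.48 ± 0.24 under isotype, where it did not pass. Ncapd2 differed by -0.73 ± 0.20 (edgeR adjusted p = 0.0209) after anti-CD40 and by -0.08 ± 0.19 under isotype. The interaction values above are the test of whether these zone differences differ between antibodies, and they did not pass.

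Ube2c and Cdc20 had zone differences of -0.82 ± 0.16 (edgeR adjusted p = 0.00203) and -1.06 ± 0.22 (edgeR adjusted p = 0.00384) after anti-CD40. For Ube2c the anti-CD40 DZ libraries had 217, 155, 203 and 172 CPM, and for Cdc20 113, 96.3, 154 and 162 CPM, all above the anti-CD40 LZ libraries given above. Birc5, the passenger subunit survivin, had 127, 131, 98.1 and 82.3 CPM in anti-CD40 LZ libraries, against 207, 188, 162 and 115 CPM in anti-CD40 DZ libraries. The zones overlapped through DZ library 4 (-0.64 ± 0.19, edgeR adjusted p = 0.0394), and the call held in 17 of 25 alternatives. Racgap1 had 52.4 ± 7.82 CPM in anti-CD40 LZ and 86.3 ± 13.1 CPM in anti-CD40 DZ (SD, n = 4 each), without overlap (-0.70 ± 0.22, edgeR adjusted p = 0.0474), and the call held in 12 of 25 alternatives. Cdca3, which promotes mitotic entry and was named after its values were seen, differed by -0.89 ± 0.20 (edgeR adjusted p = 0.00579). Of the 9 kinesins 8 were negative, with a median of -0.44 and no call. The median over the 50 genes was -0.30 beside 0.03 over all genes, and 40 were negative, where 47.4% of all genes were.

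**Figure D4:**
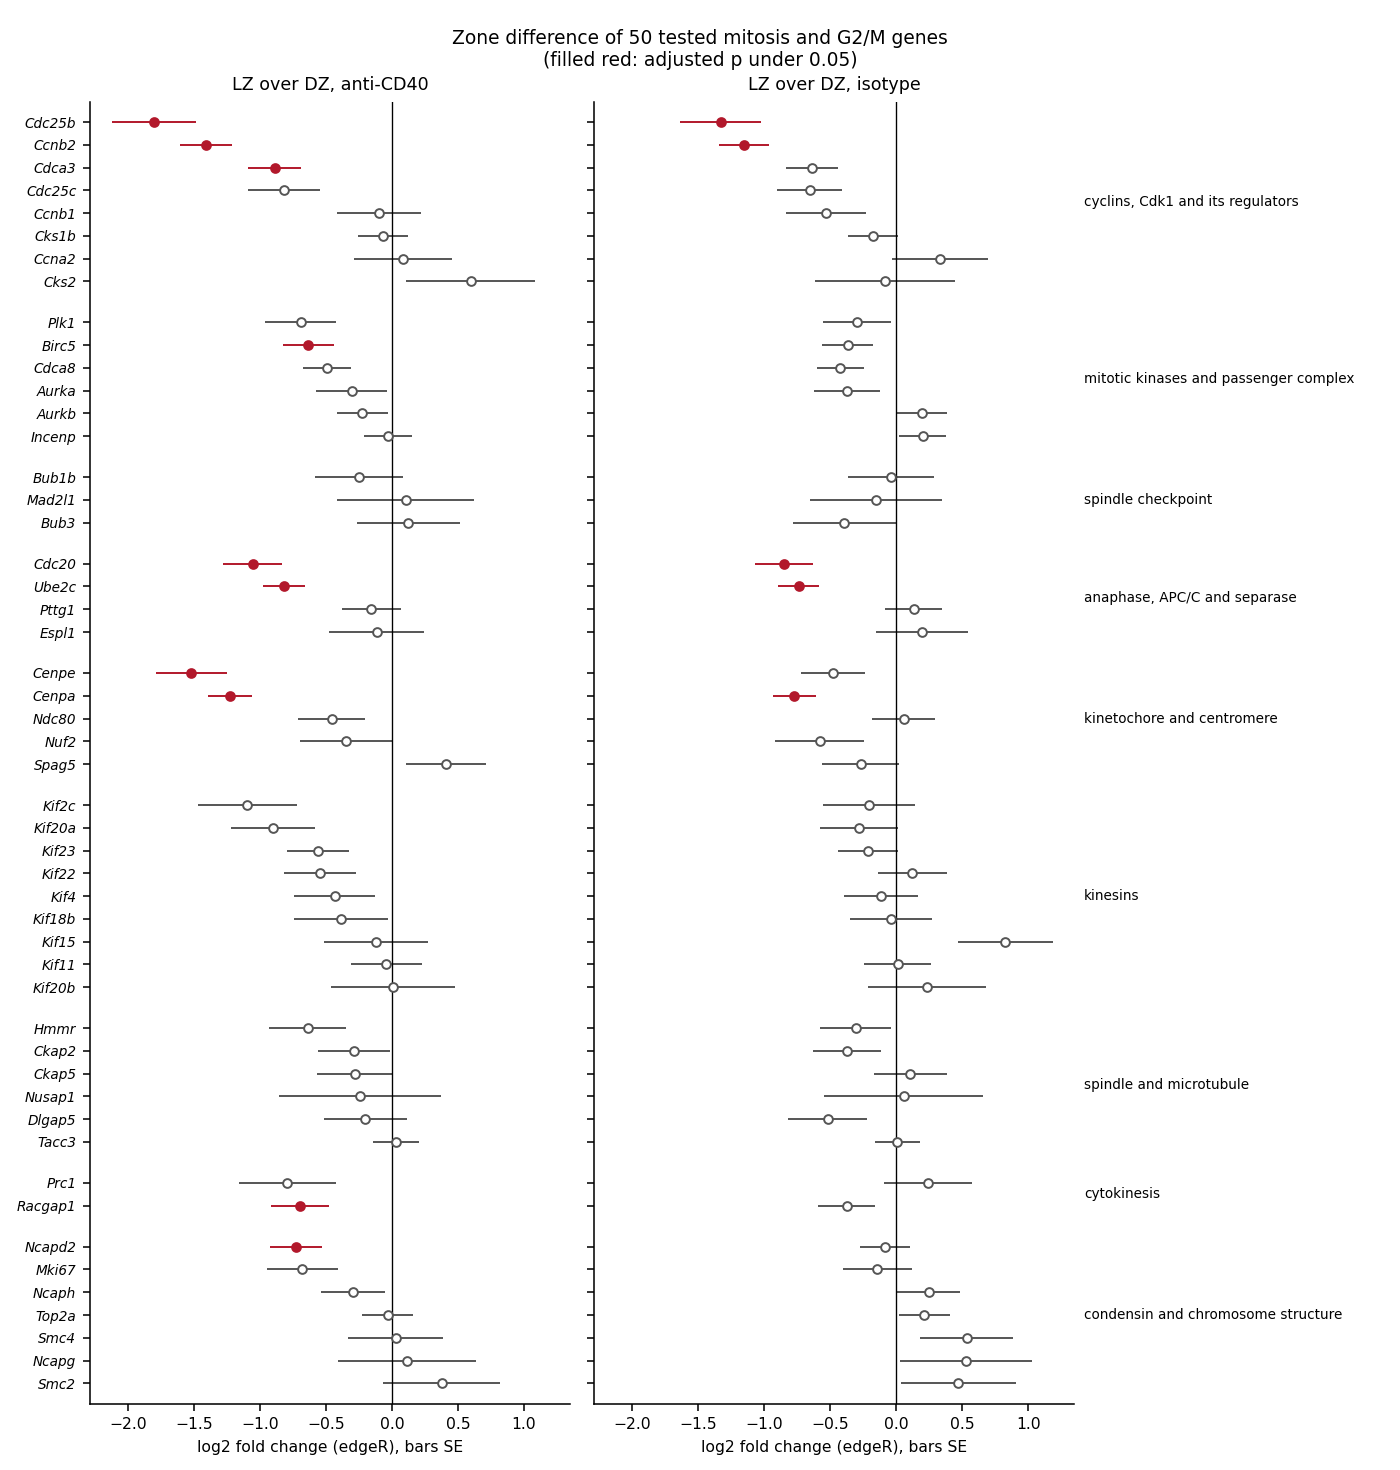
Log2 fold change (edgeR, horizontal axes, bars SE) of the 50 tested genes in LZ over DZ after anti-CD40 (left) and after isotype (right), ordered by class; filled red points passed. Passing genes lie below 0 in both panels, 10 after anti-CD40 and 5 after isotype, and the kinesins and condensin genes lie on both sides of 0 under isotype.

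The 9 genes of the list below the count filter were Cdk1, Bub1, Ttk, Ube2s, Cenpf, Tpx2, Kpna2, Ect2 and Anln. Cdk1, the central mitotic kinase, had 3.21, 4.73, 2.25 and 4.75 CPM in anti-CD40 LZ and 2.69, 4.77, 1.86 and 1.76 CPM in isotype LZ libraries, which is a few UMI each. At this depth no difference of Cdk1 was detectable. When these genes were kept in a fit without the filter, none of the 9 passed in any of the 5 comparisons. Tpx2, a spindle assembly factor named after its values were seen, had 8.02, 4.73, 6.76 and 4.75 CPM in anti-CD40 LZ libraries, against 12.1, 9.55, 13.1 and 14.1 CPM in isotype LZ libraries. The groups did not overlap (-0.98 ± 0.42, edgeR adjusted p = 0.133 in that fit). Its DZ libraries had 4.69 to 8.46 CPM after anti-CD40 and 9.69 to 18.9 CPM after isotype, also without overlap. The DZ change was of nearly the same size (-0.99 ± 0.37, edgeR adjusted p = 0.301 in that fit). In GENCODE vM21, 10 of the listed genes share exonic bases with another gene of the count table on the opposite strand. Among them are Cdc25b with Spef1, Cdc20 with Elovl1, Prc1 with Rccd1, Cdca8 with a gene named 9930104L06Rik, and Tacc3 with Tmem129. Whether counting used strand is not given in the sources used here, so reads of these pairs could have been mixed.

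Replicate number moved with the level of genes across the whole table, these genes among them. The libraries numbered 4 were the lowest of their group in all 4 groups for 7 of the 50 genes and the highest in all 4 for another 7; over all tested genes the shares were 10.8% and 10%, near those of the 50. The lowest were Bub3, Cdca3, Kif20b, Kif4, Ncapg, Smc4 and Spag5. The highest were Bub1b, Ccna2, Cdc20, Cks1b, Espl1, Ncaph and Plk1. Libraries numbered 2 were at an extreme of all 4 groups for none of the 50 genes. The labels do not say what a number stands for. Compared number by number, the summed level of the 59 genes in anti-CD40 LZ was below that in isotype LZ by 22.7, 32.2, 23.5 and 29.4% for numbers 1 to 4. In the DZ it was below isotype by 2.55, 28.4, 8.05 and 23.1%.

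**Figure D5:**
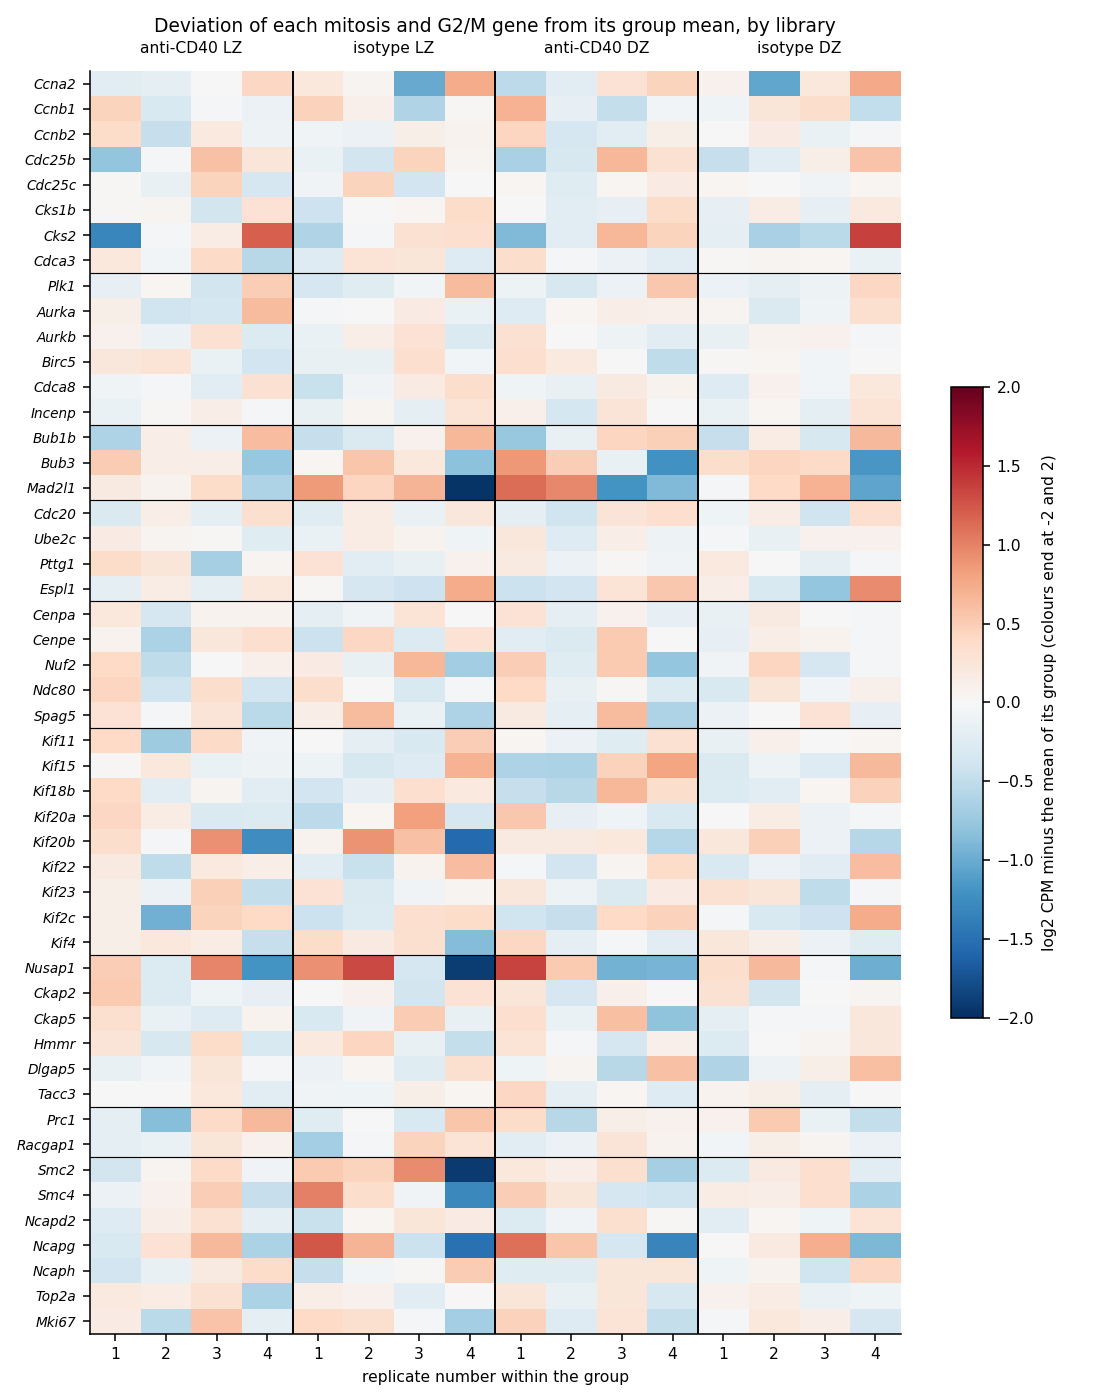
Deviation of log2 CPM from the mean of its group for each of the 50 tested genes (rows, ordered by class) in each of 16 libraries (columns, numbered 1 to 4 in each group); colours end at -2 and 2. The column numbered 4 of every group shows low Bub3, Ncapg, Smc4 and Kif20b and high Plk1, Bub1b and Espl1.

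Genes of 7 neighbouring lists were read from the same fit, in which 8.24% of all tested genes were lower and 10.8% higher in the LZ after anti-CD40; lists with 1 call or none lie at or below those shares. In the LZ after anti-CD40, 8 of 25 other spindle and cytokinesis genes fell and none rose, among them the microtubule regulator Psrc1 (-1.46 ± 0.35, edgeR adjusted p = 0.00668), the augmin subunit Haus5 (-1.03 ± 0.25, edgeR adjusted p = 0.00807), Ckap2l (-1.15 ± 0.29, edgeR adjusted p = 0.00983) and gamma-tubulin Tubg1 (-0.66 ± 0.18, edgeR adjusted p = 0.0128). Of 40 DNA replication and G1/S genes 6 fell, and the clamp loader subunits Rfc1 (-1.47 ± 0.21, edgeR adjusted p = 9.02e-05) and Rfc2 (-0.78 ± 0.14, edgeR adjusted p = 0.000994), thymidine kinase Tk1 (-0.91 ± 0.17, edgeR adjusted p = 0.000741) and the replicative helicase component Cdc45 (-0.81 ± 0.21, edgeR adjusted p = 0.00905) were the 4 with the smallest adjusted p. Of 18 cell cycle transcription regulators, E2f2 (-0.95 ± 0.19, edgeR adjusted p = 0.00163), E2f1 (-0.84 ± 0.22, edgeR adjusted p = 0.0125) and the p130 gene Rbl2 (-1.22 ± 0.36, edgeR adjusted p = 0.0217) fell. E2f1 and E2f2 activate S phase genes, whereas p130 is the pocket protein of the repressive DREAM complex. Of the 18, 12 were negative and 6 positive, and none was called higher. Mybl2 (B-Myb) had 41.7 ± 7.19 CPM in anti-CD40 LZ and 21.1 ± 7.37 CPM in isotype LZ (SD, n = 4 each). Foxm1 had 34.8 ± 5.86 and 48.7 ± 14.4 CPM, and neither of these genes passed.

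Kntc1, of the Rod-Zw10-Zwilch complex, was the 1 of 26 other kinetochore and checkpoint genes that fell (-1.18 ± 0.41, edgeR adjusted p = 0.0478). Arpp19, an inhibitor of the phosphatase that opposes Cdk1, was the 1 of 16 entry and exit genes that passed, and it rose (0.55 ± 0.17, edgeR adjusted p = 0.0266). None of 9 APC/C subunits and none of 14 cohesin and condensin II genes passed, and 0 and 2 of them had an unadjusted p under 0.05. In the DZ the replication gene Gins2 was the only call in these lists (-0.70 ± 0.18, edgeR adjusted p = 0.0486). Replication genes had a median of -0.28 in the LZ and -0.34 in the DZ. Between zones after anti-CD40, E2f2, Psrc1, Tuba1a, Ckap2l, Rfc1 and Tk1 were lower and Arpp19 was higher in the LZ. Under isotype no gene of the 7 lists passed.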

How the data were processed

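RNA was measured in 16 bulk libraries of sorted cells with mRNA barcoded at reverse transcription, pooled and amplified by in vitro transcription, per the labels' protocols. The deposited table holds counts of UMI per gene. The authors also deposited log2 fold changes and adjusted p-values for 4 comparisons, used here for numbers of shared calls. Per the submitters' processing notes, cutadapt, STAR, HTSeq, DESeq2 and mm10 were used; versions and roles are not given in the sources used here. A further 32 columns of normalized values per sample were not used.

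The count test was the robust quasi-likelihood test of edgeR 4.0.16 (glmQLFit and glmQLFTest, R 4.3.3) with TMM factors, on genes passing filterByExpr at a minimum count of 10. A single model with 4 group means took in all 16 libraries. The p-values were Benjamini-Hochberg adjusted over the 6824 tested genes, which hold 98.6% of all UMI, with a threshold of 0.05. CPM were scaled with TMM, and log2 CPM for deviations had a prior count of 2. The script was tested on simulated data. Depth was 493131 to 1473415 UMI, the biological coefficient of variation was 24.6%, and replicate pairs differed by more than sampling noise (chi-square over its degrees of freedom, 1.75 to 11.6).

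The 60 genes, their 9 classes and the 7 neighbouring lists were chosen with earlier results of these data known, so no test over a list was made. Named with full values were, in each class and comparison, up to 2 genes that passed with the smallest adjusted p, and the class member of highest mean CPM; of the other lists, up to 4 per comparison. The 25 alternatives were DESeq2 1.42.0, limma-voom (limma 3.58.1), upper quartile and RLE factors, leaving out the low-count filter, a filter of 20 counts in 4 libraries, only the groups compared, replicate number as a block, the libraries numbered 4 left out, and each of 16 libraries left out. Promoter sequences and gene positions came from RefSeq (GRCm38.p6) and GENCODE vM21. The reference build of the files is mm10, the same assembly. Figures were drawn with Matplotlib 3.10.9.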

Additional observations from a re-analysis of the deposited data

Results flagged for a closer look

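The genes described with full values, and the summed levels of all genes and of each class, gave 116 combinations with a group. In 5 of them 1 library stood apart from the other 3 of its group, where chance gives about 1 in 20 groups. All 5 were single genes, so the share among genes alone is higher than 5 of 116. Plk1 was 143 CPM in isotype DZ library 4, where the others had 93.2 to 100.1 CPM. Kif22 was 148 CPM in the same library, beside 76.8 to 88.1 CPM, and Bub3 was 71.7 CPM there, beside 209 to 221 CPM. Kif22 was 41.0 CPM in anti-CD40 LZ library 2, beside 64.9 to 67.6 CPM. Birc5 was 179 CPM in isotype LZ library 3, beside 127 to 136 CPM. The cause was not tested.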

How the results depend on the processing

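No gene of the 50 that passed in a comparison reversed direction in any alternative. The small medians over all genes did change sign. Without isotype DZ library 4 the median went from 0.01 to -0.03 in the LZ and from -0.01 to 0.02 in the DZ. Between anti-CD40 zones it went from 0.03 to -0.02 without anti-CD40 DZ library 4. The number of genes of the 50 lower in the LZ after anti-CD40 (12) was 7 with limma-voom, 19 with upper quartile factors, 6 without the low-count filter and 7 without the libraries numbered 4 (5 of the 12 shared, 54 genes tested). Fewer genes and samples enter some of these fits; otherwise the cause was not tested. Upper quartile factors moved the median of all genes in the LZ to -0.10. The authors' deposited table calls 13 of the 59 genes lower in the LZ, 11 of them shared, none in the DZ, 6 between isotype zones (5 shared) and 10 between anti-CD40 zones (10 shared). Among all genes, interaction calls (1) numbered 38 with DESeq2, 2 with upper quartile factors and 0 without the libraries numbered 4. Between isotype zones, calls over all genes (152) numbered 235 with DESeq2 and 101 with only the groups compared. The summed level in anti-CD40 LZ was 2920 CPM on library totals, where 3149 CPM was the TMM-scaled value.

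Leaving out 1 library at a time gave 5 to 16 genes lower in the LZ, 1 to 5 between isotype zones and 7 to 12 between anti-CD40 zones. The median of the 50 genes ran from -0.66 to -0.47 in the LZ and from -0.47 to -0.28 between anti-CD40 zones. Over all genes it gave 876 to 1361 calls in the LZ, 98 to 183 in the DZ, 0 to 2 for the interaction, 72 to 154 between isotype zones and 480 to 943 between anti-CD40 zones.

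Same-numbered libraries correlated in their deviations at -0.21 to 0.66, over 0.1 in 18 of 24 pairs, and 15 correlated best with their own number, but in none of the 4 pairs of groups compared did all 4 numbers exceed 0.1. In isotype LZ with anti-CD40 DZ, which were not compared, all 4 did (0.18 to 0.66). The numbers are therefore not taken as pairing. With the replicate block, 21 of the 50 genes were lower in the LZ (11 of the 12 shared) and 1 was higher, Cks2 (log2 fold change 1.0, SE 0.31, edgeR adjusted p = 0.0183); 6 of the 9 kinesins were then lower in the LZ, where 1 was without the block, and 16 of the 50 genes were lower between anti-CD40 zones. Over all genes the block gave 2013 calls in the LZ, 427 in the DZ, 107 for the interaction, 433 between isotype zones and 1533 between anti-CD40 zones. Depth limits the 9 genes below the filter.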
